A study of Mus musculus with 2 samples.

Results

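Ecrg4 (listed on the arrays as 1500015O10Rik) and 8 proprotein convertases, Furin, Pcsk1, Pcsk2, Pcsk4, Pcsk5, Pcsk6, Pcsk7 and Mbtps1, were read in the Ecrg4-binding clone BaF/3 (#BEB1) and in the Ba/F3 cells it was derived from. The genes were chosen by name among the spots that are not controls, and they are 9 of the 31709 genes on the array. Ba/F3 is a mouse pro-B cell line that depends on interleukin-3. BaF/3 (#BEB1) is a single clone that was sorted repeatedly for binding of an Ecrg4–Fc fusion protein after infection of Ba/F3 cells with a retroviral cDNA library of CG4 cells, a rat oligodendrocyte precursor line. Both lines were kept in medium with serum and interleukin-3, and 1 array was hybridised for each, so the differences have no replicates behind them and are given without p-values. Which rat cDNAs the clone carries was not analysed here.

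Ecrg4 encodes a secreted precursor protein that is cut into smaller peptides, and its fragments act on neural precursor cells and leukocytes. The proprotein convertases are subtilisin-like serine proteases of the secretory pathway. Furin, Pcsk5, Pcsk6 and Pcsk7 cut precursors after basic residues in the trans-Golgi network, in endosomes and at the cell surface. Pcsk1 and Pcsk2 do so in the dense-core granules of neuroendocrine cells, and Pcsk4 acts mainly in germ cells. Mbtps1, also called site-1 protease, cuts after other residues in the Golgi and releases membrane-held transcription factors such as SREBP-2 and ATF6.

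The arrays and the cell lines could not be paired with certainty. In the authors' table of values, each column matched the scanner signals deposited for the other cell line, with Pearson correlations across 39429 probes of 0.999996 for the BaF/3 (#BEB1) column and 0.999998 for the parental column, against 0.982286 and 0.982285 for the line of the same name. Array A here is the array listed as BaF/3 (#BEB1) in that table, and array B is the array listed there as the parental cells. Every difference is on the log2 scale, with array B subtracted from array A. A positive value is thus higher in BaF/3 (#BEB1) if the table is right, and higher in the parental cells if the scanner output is right. The study describes the transcript of Olr1, the gene of the Ecrg4 receptor LOX-1, as more abundant in the clone. Olr1 was brighter on array A, so the table's labels give it that direction and the scanner labels the opposite one. The labels were not reassigned from the signals. The 75th percentile of the signal, by which each array was scaled, was 1506 (array A) and 1080 (array B). The 153 negative control spots had a median signal of 6.89 and a highest one of 77.7 (array A), and 5.51 and 53.8 (array B). Of 9 haematopoietic and pro-B markers on the array, 7 were measured on both arrays, among them Ptprc, Il3ra and Lyl1. Kit and Cd79a were measured on neither. Among the 7 measured ones, Cd79b (−2.30), Csf2rb (−1.86) and Vpreb1 (−1.39) were at least 2-fold brighter on array B. Vpreb1, however, was at −0.94 with normexp background correction. Of the markers of other cell types, 4 of 9 neuroendocrine genes were measured on both arrays, a share close to the 46.7% of all genes. These were Snap25, Syp, Pomc and Ins2. Snap25 was above the 75th percentile on both arrays, with scaled log2 values of 1.12 (array A) and 1.73 (array B). The shares were lower in the other lists, with 1 of 6 oligodendrocyte precursor, 1 of 5 epithelial and choroid plexus and 0 of 4 fibroblast genes. Choroid plexus Ttr and the granins Chga, Chgb and Scg2 have probes but were measured on neither array.

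The 9 genes were read by 12 probes of 60 bases, each printed at 1 spot. The last 30 bases of a probe are shown for the genes that were measured and for Ecrg4 and Pcsk5, 5′ to 3′ in the sense of the transcript, since the sequence and place of a probe set which transcripts it can read. Capitals mark AATAAA, the common polyadenylation signal.
Ecrg4 A_51_P404463: tgcatttcatgcatgtgcttaacgatatgt
Furin A_55_P2064557: aagtgattaaacgtgcagactatgcaaacc
Pcsk7 A_51_P351285: ttcaaagatagcctgggagcactgtctctg
Pcsk4 A_55_P2167269: agaccacagccaccaatcatctgccccttc
Mbtps1 A_55_P2047325: aggaaattttcAATAAAtatgcataacctt
Mbtps1 A_52_P406482: gtaggatggctgatcagtaaggctgcagct
Pcsk5 A_52_P544043: gcaagagatgtgataacagctgtttgacat
Pcsk5 A_55_P2167274: tacgatgatgagagctactcttaccaataa
AATAAA, searched on the probe strand only, lay in the last 30 bases of 1 of the 12 probes, the bright Mbtps1 probe, and of 10.6% of all 39429 probes. In mm9, the build of the scanner output, the Ecrg4 probe lies at chr1:43799321-43799380 on the plus strand (NM_024283). The Furin probe lies at chr7:87534082-87534141 on the minus strand (NM_011046), the Pcsk7 probe at chr9:45737513-45737572 on the plus strand (NM_008794) and the Pcsk4 probe at chr10:79784094-79784153 on the minus strand (NM_008793). The Mbtps1 probes, both for NM_019709, lie at chr8:122032056-122032115 and chr8:122071553-122071612 on the minus strand, 39.4 kb apart. The Pcsk5 probe A_52_P544043 is placed at chr19:17638365-17639236 on the minus strand, a span of 872 bases for 60 bases of probe, so it crosses an intron, and A_55_P2167274 at chr19:17507883-17507942. The place of the other probes within exons and UTRs is not given, as no gene annotation in mm9 was at hand.

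A probe counts as measured where the extraction software marked it well above background, and a gene where at least 1 of its probes was so marked on both arrays. Furin, Pcsk4, Pcsk7 and Mbtps1 were measured, 4 of the 9 genes, while 46.7% of all genes were (14815 of 31709). Ecrg4, Pcsk1, Pcsk2, Pcsk5 and Pcsk6 were well above background on neither array, so none of them has a difference. Of the 12 probes, 5 were well above background on both arrays and 7 on neither.

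**Figure D1:**
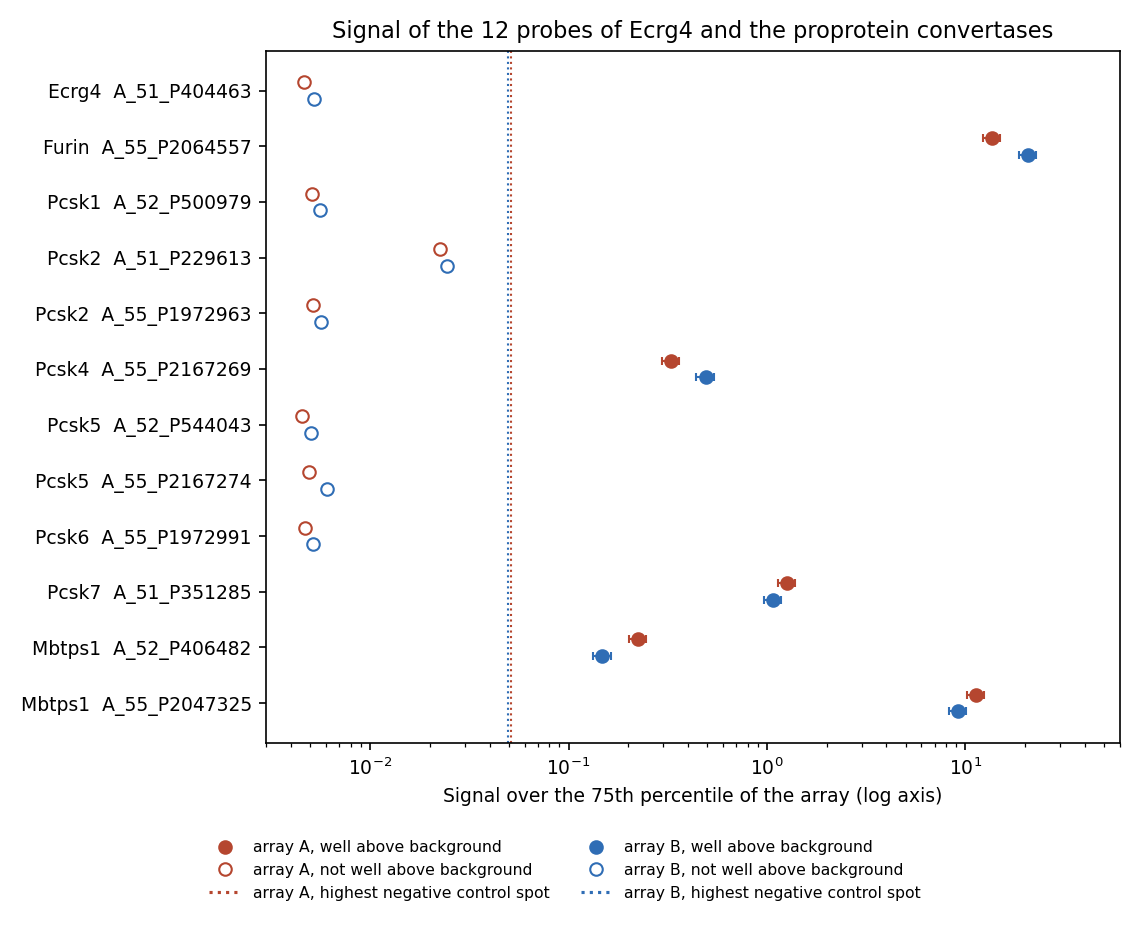
Signal of each of the 12 probes over the 75th percentile of its array, on a log axis, with array A in red above array B in blue. Bars are the error that the extraction software gives the spot, and dotted lines the highest negative control spot of each array. The 5 filled pairs, of Furin, Pcsk4, Pcsk7 and Mbtps1, lie to the right of both lines and the 7 open pairs to the left.

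Ecrg4, the ligand for which the clone was selected, had a signal of 6.99 on array A and 5.62 on array B. These are surrogate values, which the software gives to a spot that is not above background, and 73 and 70 of the 153 negative control spots were as bright or brighter on array A and array B. Transcripts of Ecrg4 were therefore not detectable at this sensitivity on either array, which is not a measure of their absence.

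Pcsk1 and Pcsk2, the convertases of neuroendocrine granules, were dim as well. The Pcsk1 probe had surrogate signals of 7.65 on array A and 6.01 on array B. There were 41 and 43 negative control spots at or above it. Of the Pcsk2 probes, A_55_P1972963 had surrogate signals of 7.76 and 6.10, whereas A_51_P229613 gave 33.8 ± 8.44 (array A) and 26.5 ± 6.71 (array B; ± error of the software). The second of these was positive and significant over background on both arrays without being well above it, and 3 negative control spots on array A and 1 on array B were at least as bright. It was the brightest of the 7 dim probes on both arrays.

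Pcsk5 and Pcsk6 process growth factors and cell surface proteins. The Pcsk5 probe that crosses an intron had surrogate signals of 6.86 on array A and 5.43 on array B, where 79 and 84 negative control spots reached it. The other Pcsk5 probe had a surrogate signal of 7.41 on array A and a signal of 6.57 on array B that was significant over background, with 52 and 19 negative control spots at or above it. The probe of Pcsk6 (NM_011048) had surrogate signals of 7.10 and 5.58, with 69 and 73 such spots. Neither gene stood out from the negative control spots on either array.

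Furin, the ubiquitous convertase of the trans-Golgi network, gave strong signals, 20550 ± 2055 on array A and 22333 ± 2233 on array B. Scaled to the 75th percentile, it stood at 3.77 on array A and 4.37 on array B, a difference of −0.60 ± 0.20, or 1.51-fold towards array B. The signals before scaling overlap within their errors, and the 75th percentile by which they were divided was higher on array A. Among all measured genes, 17.2% had a lower difference and 70.8% a smaller one in size.

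Pcsk7, a second widely expressed convertase, had signals of 1894 ± 190 on array A and 1159 ± 116 on array B. These are scaled values of 0.33 and 0.10 and a difference of 0.23 ± 0.20, about the size of its error. Before scaling, the signal was 1.63-fold higher on array A. Its difference exceeded that of 67.9% of the measured genes and was larger in size than that of 33.1%.

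Pcsk4, known mainly from sperm and ovary, was read well above background with 494 ± 49.8 on array A, against 530 ± 53.3 on array B. The scaled values were −1.61 and −1.03, a difference of −0.58 ± 0.21, and 17.7% of the measured genes had a lower one. As with Furin, the signals before scaling overlap within their errors. All negative control spots were dimmer than this probe on both arrays. The gene was read by this 1 probe, and no other probe tells whether the signal comes from its full transcript.

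Mbtps1 was the only measured gene of the 9 with more than 1 probe. Its bright probe A_55_P2047325 had 17009 ± 1701 on array A and 9917 ± 992 on array B, scaled to 3.50 and 3.20, a difference of 0.30 ± 0.20. The dim probe A_52_P406482 had 336 ± 34.3 and 160 ± 16.9, scaled to −2.16 and −2.76, a difference of 0.59 ± 0.21. Before scaling, the bright probe was 1.72-fold and the dim probe 2.10-fold brighter on array A. Both probes were brighter on array A and their differences lay 0.29 apart, near the median range of 0.27 between the probes of a gene over the 3152 genes with several measured probes. The mean for the gene was 0.45, or 1.36-fold, above 81.2% of the measured genes.

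After scaling, none of the 4 measured genes was 2-fold apart. The count was 0 towards array A, where 3.85% of all measured genes were at least 2-fold brighter (570), and 0 towards array B, where 7.3% were (1082). Pcsk7 and Mbtps1 were above 0, and Furin and Pcsk4 below. Their median was −0.18, beside −0.02 over all measured genes, of which 7211 were above 0 and 7604 below. The errors given with the differences cover the spot only. Probes printed at 10 spots had a median SD between spots of 0.06 on array A, against 0.05 on array B, and neither measure holds the variation between cultures.

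**Figure D2:**
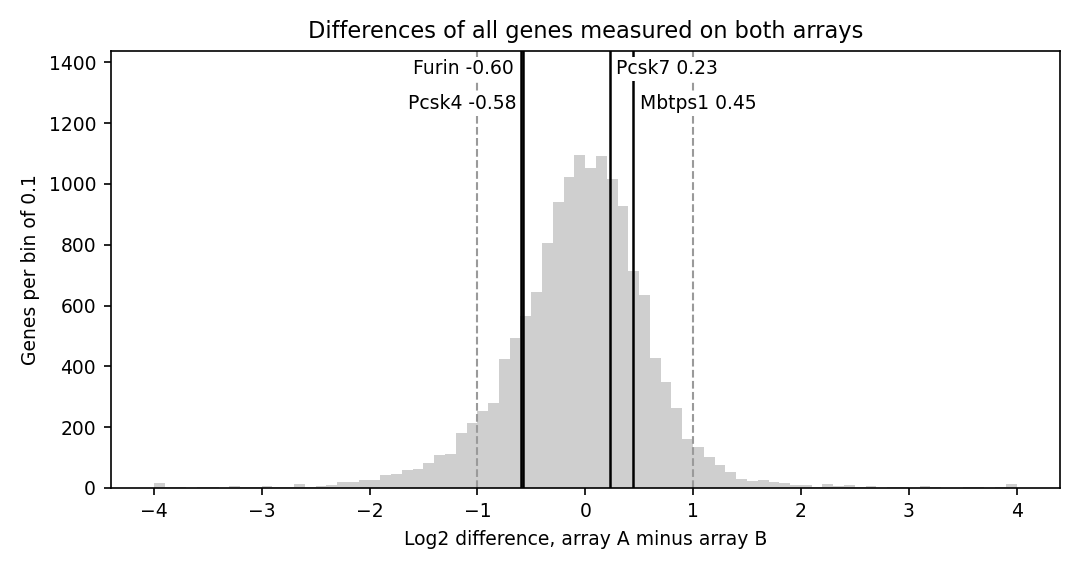
Difference in log2 signal (array A less array B) of the 14815 genes measured on both arrays, as genes per bin of 0.1, with values beyond −4 or 4 placed in the end bins. Solid lines mark Furin (−0.60), Pcsk4 (−0.58), Pcsk7 (0.23) and Mbtps1 (0.45), all inside the dashed lines at 2-fold.

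Another scaling factor moves every difference by the same amount. With each array scaled to its median, all differences were higher by 0.29, and the 4 genes were at −0.31 (Furin), −0.29 (Pcsk4), 0.52 (Pcsk7) and 0.74 (Mbtps1). The median of all measured genes was then 0.27, so relative to it the order and the gaps were as before. Over 11 other settings, Furin lay between −0.69 and −0.31, Pcsk4 between −0.66 and −0.29, Pcsk7 between 0.15 and 0.52 and Mbtps1 between 0.30 and 0.74. No setting turned the sign of any of them or brought one to 2-fold.

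**Figure D3:**
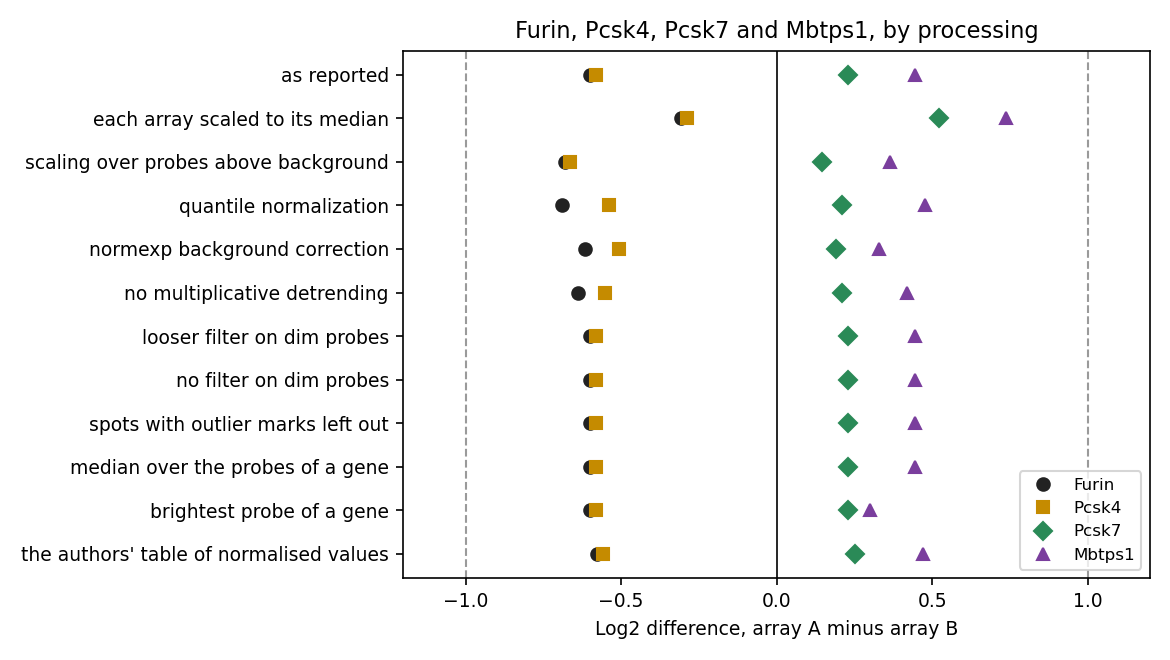
Difference in log2 signal (array A less array B) of Furin, Pcsk4, Pcsk7 and Mbtps1 under the setting reported and 11 others. The 4 genes keep their side of 0 in all of them, and the points lie within 2-fold.

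Proteins that carry, escort or inhibit the convertases were mostly measured, 18 of 21, with a median of 0.19. At least 2-fold brighter were 2 on array A and 0 on array B, beside 3.85% and 7.3% of all measured genes. Igf2r, the mannose 6-phosphate receptor that sorts hydrolases between the Golgi and endosomes, was at −1.50 on array A and −2.66 on array B, a difference of 1.16. Vps35, a subunit of the retromer that returns cargo from endosomes, was at 0.73 and −0.34, a difference of 1.07. Both calls rest near the threshold: Igf2r was at 0.89 with normexp background correction and Vps35 at 0.99 when each array was scaled over its probes above background. Pcsk1n, the inhibitor of Pcsk1, was at −2.60 and −2.72 (0.12), although Pcsk1 itself was not measured. Scg5, the chaperone of Pcsk2, was measured on neither array. The protease inhibitor Spint1, chosen after its value was seen, was measured on array B only, at least 2.44-fold brighter there. This bound sets the bright signal against the lowest one well above background on the dim array or the dim probe's own, whichever is higher.

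Enzymes that trim the peptides after the first cut, or cut precursors at other sites, were measured in 11 of 30 cases. Their median was 0.16. Of the 11, 1 was at least 2-fold brighter on array A and 2 on array B, beside 3.85% and 7.3% of all measured genes. Pam, which amidates the end of peptides, was at −2.11 on array A and −3.45 on array B, a difference of 1.34 that was 0.79 with normexp. The carboxypeptidases Cpe and Cpd, which remove the basic residues left by a convertase, were at differences of 0.16 and −0.13. Cpe was dim, at −4.87 on array A and −5.03 on array B. Its difference was −0.09 with normexp and 0.46 without the filter on dim probes. The 2 Cpd probes had opposite signs, −0.36 at the brighter one and 0.10 at the other. The lysosomal protease Ctsd was at 1.91 on array A, against 3.36 on array B (−1.44), with −0.99 at its brighter probe and −1.90 at the other. The coagulation protease F10 was at 3.57 and 4.84 (−1.27), but its brighter probe gave −0.27 and the other −2.27, so that its call rests on 1 probe. With median scaling F10 was at −0.98. Prss8 and Tmprss6, membrane-bound serine proteases named after their values were seen, were measured on array B only. They were at least 3.05-fold and 2.37-fold brighter there at the probe with the larger bound. With the looser filter on dim probes, Prss8 was at only −0.38, so its bound does not hold for every probe. The thrombin gene F2 was measured on neither array.

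Among genes whose proteins are cut by Furin-like convertases, 35 of 80 on the array were measured, with a median of −0.07. Of the 35, 2 were at least 2-fold brighter on array A and 6 on array B, beside 3.85% and 7.3% of all measured genes. Adam9, a membrane metalloprotease, was at 3.22 on array A, against 1.14 on array B (2.08). The complement component C3 was at 0.94 and −0.89 (1.83). Brighter on array B were the stress-induced cytokine Gdf15 (−5.34 on array A, against −3.47 on array B, −1.87), the integrin chain Itga4 (−1.91 and −0.09, −1.82) and the metalloprotease Adam12 (−5.36 and −3.58, −1.78). Gdf15 and Adam12, both dim, were at −1.05 and −1.10 with normexp, and Adam12 was at −0.72 and thus under 2-fold without the filter on dim probes. Fbn1 (−1.73), Angptl4 (−1.54) and Tnfsf13b (−1.34) were also at least 2-fold brighter on array B. With normexp, Fbn1 was at −0.95 and Tnfsf13b at −0.97, under 2-fold, and Angptl4 at −1.50. Over all 35 genes, 15 were above 0 and 20 below.

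The partners and substrates of Mbtps1 were measured in 29 of 34 cases, with a median of 0.06. At least 2-fold brighter were 3 on array A and 1 on array B, beside 3.85% and 7.3% of all measured genes. Its substrate Atf6, a stress sensor of the endoplasmic reticulum, was at −0.02 on array A, against −1.68 on array B (1.67), and the related substrate Creb3 at 1.94 and 0.53 (1.41). Sec24d, a coat protein of the vesicles that leave the endoplasmic reticulum, was at 0.23 and −0.92 (1.15). The sterol-responsive substrates lay the other way without reaching 2-fold, with Srebf1 at −2.94 on array A, against −2.21 on array B (−0.73) and Srebf2 at −1.63 and −0.86 (−0.78). Insig1, which holds the SREBP precursors in the endoplasmic reticulum, was at −5.40 and −3.24 (−2.17, and −1.24 with normexp). Its signal was thus dim, above all on array A. Scap, their escort, and Mbtps2, the protease of the second cut, differed by 0.06 and −0.05.

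Targets of ATF6, many of whose products fold or clear proteins in the endoplasmic reticulum, were measured in 20 of 21 cases. Of these, 16 were above 0, and the median was 0.48, beside −0.02 over all measured genes. At least 2-fold brighter were 5 on array A but 0 on array B, beside 3.85% and 7.3% of all measured genes. Ddit3, a stress-induced transcription factor, was at 3.18 on array A, against 1.52 on array B (1.66), and the chaperone Hspa5 at 6.34 and 4.69 (1.65). Sel1l, of the degradation machinery, was at 1.50 and 0.28 (1.22), the transcription factor Xbp1 at 5.34 and 4.20 (1.15), and Manf at 3.90 and 2.88 (1.02). Manf was under 2-fold when scaled over the probes above background (0.93) and after quantile normalization (0.96). Whether the difference of Mbtps1 has a part in these values was not tested.

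The last list joins receptors of Ecrg4 with related scavenger receptors, for which binding is not implied, and with Toll-like receptor signalling genes down to the cytokine Il6. It was measured in 13 of 21 cases, with a median of 0.29. Of the 13, 3 were at least 2-fold brighter on array A and 2 on array B, beside 3.85% and 7.3% of all measured genes. Olr1, which encodes the scavenger receptor LOX-1, was at 3.11 on array A, against −1.90 on array B (5.01), and Il6, an output of that signalling, at 5.13 and 1.84 (3.29). Tlr4 was at 0.41 and −1.40 (1.81). Stab1, whose product the study reports to take up an Ecrg4 peptide as LOX-1 does, lay the other way. It was at 0.63 on array A, against 2.03 on array B (−1.41). The scavenger receptor Scarb1 (−1.50 and −0.12, −1.38) was also brighter on array B. Cd36, Msr1 and Scarf1 were measured on neither array. Olr1 was 32.1-fold brighter on array A, which is BaF/3 (#BEB1) by the table's labels, while the gene of its ligand, Ecrg4, was measured on neither array.

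**Figure D4:**
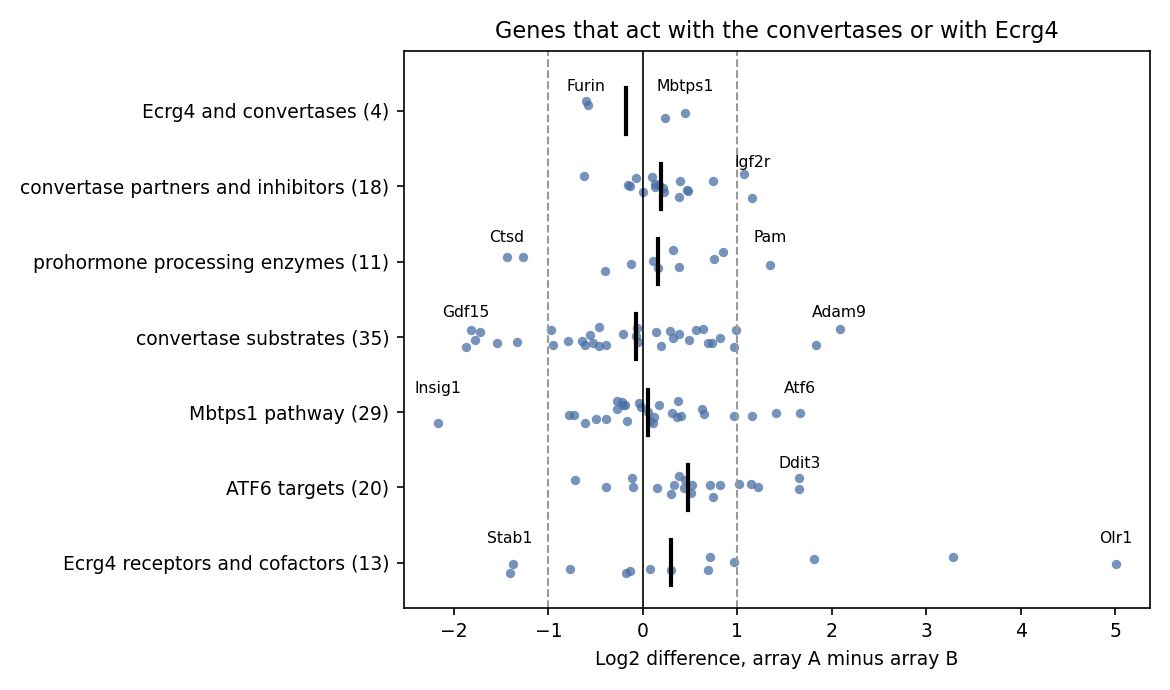
Difference in log2 signal (array A less array B) of every measured gene in the named lists, 1 point a gene, with a bar at the median of each list and the number of measured genes in brackets. The ATF6 targets have a median of 0.48, and the Ecrg4 and convertase genes one of −0.18.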

How the data were processed

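Cy3-labelled RNA of BaF/3 (#BEB1) and parental Ba/F3 cells was hybridised to 1 Agilent mouse array each, on the same slide. The deposited scanner intensity was made by the authors with Agilent Feature Extraction 9.5.1.1, with background subtracted and trends removed. The authors also deposited a table of log2 values, scaled to the 75th percentile with signals under 1.0 set to 1.0, which served as an alternative. Its columns were set against the scanner output, and its scale was thereby settled as log2 without centring per gene, while the labels of the arrays were not settled.

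Of 44397 features, 43020 spots of 39429 probes were not controls. Signals were divided by the 75th percentile of the array, put on a log2 scale and averaged per probe, then per gene over those probes that both arrays marked well above background. Probes were named through RefSeq (GRCm38.p6, names only): 26055 through their accession, 3195 through a current and 930 through an older symbol, with 9249 left under the scanner's name. Probe sequences are from the scanner output. No test was possible with 1 array per line, and the number of arrays limits the precision.

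The members and lists were chosen with earlier results of these data known. All 9 members are named, up to 5 genes at least 2-fold apart per list (largest first), and Scg5, Pcsk1n, Mbtps2, Scap, Srebf1, Srebf2, Atf6, Insig1, Olr1, Cpe, Cpd and Pam. One further gene under this rule is not reported here. The averaging over probes and the 2-fold threshold were also run on simulated probe values with known changes, while the other steps were not. The alternatives were scaling, background, filter, probe and threshold choices. Python 3.11.15, numpy 2.4.6, pandas 2.3.3 and matplotlib 3.10.9 were used, with R 4.3.3 and limma 3.58.1 for normexp (offset 50) and quantile scaling.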

Additional observations from a re-analysis of the deposited data

How the results depend on the processing

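No paired analysis was possible because each cell line has 1 array. The count of 0 convertase and Ecrg4 genes at least 2-fold apart held in both directions under all 12 alternatives. Not all of these could change it. A 3-fold threshold cannot raise a count of 0. Leaving out marked spots, or taking the median over probes, left the values of the measured convertases as they were. The median difference of the measured ones (−0.18) was 0.12 with median scaling, and −0.26 when arrays were scaled over probes above background. Median scaling gave 3 processing enzymes, 6 substrates, 8 ATF6 targets and 5 receptors and cofactors brighter on array A, and 1 processing enzyme on array B. Over all genes it gave 1313 and 587 at least 2-fold brighter on array A and array B, in place of 570 and 1082, as the shift of every difference by construction moves both counts. Normexp left 1 partner and 0 processing enzymes on array A, and over all genes 385 and 707. Scaling over probes above background left 1 partner on array A. The looser filter on dim probes gave array B 5 of 19 processing enzymes, 11 of 47 substrates and 3 of 31 Mbtps1 pathway genes. Over all genes, the share brighter on array B was then 10.2% of 18568. Unfiltered, array B had 2 of 21 partners, 6 of 30 processing enzymes, 13 of 80 substrates and 4 of 34 Mbtps1 pathway genes. Array A then had 4 of 80 substrates. The shares of all 31709 genes without a filter were 8.76% on array B and 4.7% on array A. The brightest probe of a gene gave 4 substrates on array A and 0 processing enzymes on array B. At 3-fold there remained on array A 0 partners, 0 processing enzymes, 1 Mbtps1 pathway gene and 2 ATF6 targets, and on array B 0 processing enzymes and 0 receptors and cofactors. No alternative reversed a value of a single convertase. Signal over background limits Ecrg4, Pcsk1, Pcsk2, Pcsk5 and Pcsk6, which have no difference at the filter used.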
